A study of Mus musculus with 16 samples.

Results

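Olfactory neurons sorted for an activity reporter were compared between mice given an odorant and mice given vehicle. The comparison used the 4 arrays of GFP+ cells from odorant-stimulated mice and the 4 arrays of GFP+ cells from vehicle-stimulated mice, 8 of the 16 arrays of the series, chosen by their titles, and covered all 22206 gene probesets of the Clariom S array. All mice were S100a5-tauGFP mice, which carry a green fluorescent protein (GFP) reporter at the S100a5 gene. They were males and females of 7 to 12 weeks, 24 in all, kept singly for 40 h in chambers with an air flow of 3.1 L/min. After 26 h, pulses of 10 s came every 20 min and held either the odorant or, for vehicle, filtered air. Its identity is not settled by the records, which give bourgeonal for each sample but indole for the series, and it is called the odorant throughout. Each array held RNA of olfactory mucosa cells pooled from 3 mice. The 24 mice therefore make 8 pools, each of which gave 1 GFP+ and 1 GFP- array. The sources used here give neither a dose nor the number of males and females in each pool.

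Each mature olfactory sensory neuron expresses 1 allele of 1 odorant receptor gene, so the receptor mRNA in a set of neurons tells which kinds of neuron the set holds. An odorant opens the ciliary transduction channel only in neurons whose receptor it binds, through the G protein subunit encoded by Gnal, the adenylyl cyclase encoded by Adcy3 and the channel subunit encoded by Cnga2. S100a5 encodes a calcium-binding protein whose transcription in these neurons follows their activity. The comparison addresses which receptors become more abundant among GFP+ neurons when the odorant is present. In pools of sorted cells, more cells of a type and more RNA per cell cannot be told apart.

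The arrays were alike in overall signal. The median log2 signal over gene probesets was 6.29 to 6.38 on the 8 arrays. The array carries 23 antigenomic probesets, designed to match nothing in the mouse genome, and background was taken on each array as the 95th percentile of their signals, which lay at 6.57 to 6.87. Between 46.7% and 48.4% of gene probesets exceeded it. Across all gene probesets, pairs of arrays of one treatment correlated at 0.989 to 0.994 (12 pairs) and pairs from different treatments at 0.99 to 0.994 (16 pairs). In the pools numbered 4 of both treatments, the Y-linked gene Eif2s3y stood at 2.67 with odorant and 3.41 with vehicle, against 9.95 to 11.00 in the other 6 GFP+ arrays. Likewise Uty, also Y-linked, stood at 4.26 and 4.37 against 9.90 to 11.18, and Kdm5d at 2.93 and 3.44 against 6.43 to 7.68. The pools numbered 4 thus stood apart in Y-linked signal in both treatments, and there all of these genes lay under background.

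The sorted cells carried the markers of mature olfactory neurons. All 8 fixed markers (Omp, Gnal, Adcy3, Cnga2, Cnga4, Stoml3, Rtp1 and Gng13) were above background on all 8 arrays, and their differences, odorant minus vehicle, ranged from -0.04 to 0.06. Omp, the marker protein of mature olfactory neurons, stood at 18.62, 18.71, 18.68 and 18.75 with odorant and at 18.66, 18.69, 18.67 and 18.67 with vehicle. Of the other cell types, none of the 8 markers of horizontal basal cells, the reserve stem cells of the epithelium, was above background on any array. Of 16 immune cell markers, 7 had a mean over the 8 arrays above background. Of 12 probesets of sustentacular (supporting) cells, 8 were above background on all 8 arrays. The same held for 13 of 27 probesets of xenobiotic enzymes of the mucosa.

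With odorant, no gene of the GFP+ cells changed past the threshold. Differences are given as odorant minus vehicle on the log2 scale, and were tested with limma (two-sided). P-values were adjusted by Benjamini and Hochberg's method across the 22206 probesets, and 0.05 was the threshold for a call. The number called was 0 (0%). At an unadjusted p under 0.05 there were 848 probesets (3.82%), of which 524 were higher (2.36%) and 324 lower (1.46%) with odorant. After quantile normalization of the same arrays that split was 430 higher and 417 lower, and with dim probesets left out it turned to 108 higher and 163 lower. The 4 odorant arrays all lay above the 4 vehicle arrays for 306 probesets (1.38%) and all below for 204 (0.919%).

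The smallest adjusted p was 0.34, for the predicted gene Gm8369. It stood at 4.12, 3.72, 3.79 and 4.10 with odorant and at 2.81, 2.67, 3.02 and 2.54 with vehicle. The groups did not overlap, but every value lay under background. The share of probesets at an unadjusted p under 0.05 changed with signal. Over 4 bins of equal size by mean signal, from weakest to strongest, it was 5.03%, 6.11%, 3.15% and 0.991%.

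Most differences were small. The median absolute difference was 0.119, and 97.4% of probesets lay within 0.5 and 99.8% within 1 of no difference, without regard to the error of each. The median 95% interval reached 0.395 to either side of the estimate. There were 26 probesets with a difference above 1 and 16 below -1. The plot of difference against signal shows that the largest differences in both directions included those of a few odorant receptors and of probesets without a gene name.

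**Figure D1:**
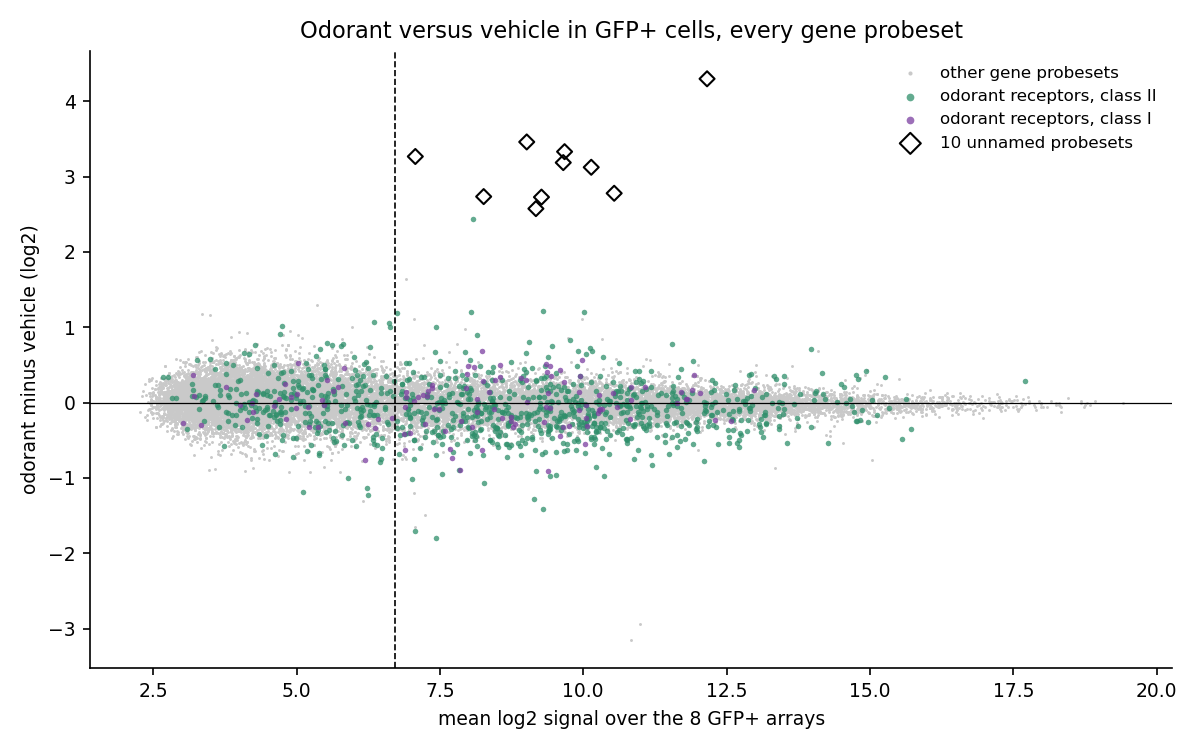
Difference between odorant and vehicle (log2) against mean log2 signal over the 8 GFP+ arrays, 1 point for each of the 22206 gene probesets. Class I and class II odorant receptors are coloured, diamonds mark 10 probesets without a gene symbol, and the dashed line is the mean background level of 6.71. The diamonds lie between 2.57 and 4.30, above all other points, and most other points lie within 1 of zero.

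S100a5, the gene that drives the reporter, did not differ detectably between treatments in cells already sorted for it. Its signal was 16.12, 15.56, 16.03 and 16.27 with odorant and 16.00, 16.06, 15.61 and 16.22 with vehicle. The difference was 0.02 with a 95% interval of -0.40 to 0.44 (adjusted p = 0.999, limma). The ranges of the 2 groups overlapped almost fully. In the GFP- cells of the same pools it stood lower, at 14.55 to 15.22 with odorant and 14.90 to 15.23 with vehicle.

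Of 7 measured genes whose level in olfactory neurons follows activity, 0 were called, with a median difference of 0.08 against 0.01 over all probesets. At an unadjusted p under 0.05 there was 1 gene (14.3%, against 3.82% of all probesets). That gene was Lrrc3b, which stood at 13.79, 14.89, 14.25 and 14.84 with odorant and at 13.45, 14.10, 13.26 and 14.23 with vehicle. Its difference was 0.68 ± 0.29 (SE), and the groups overlapped. Kirrel2 encodes an adhesion molecule by which axons of like activity sort into glomeruli. It stood at 14.53, 15.95, 14.67 and 15.50 with odorant and at 14.73, 14.94, 14.59 and 14.68 with vehicle, a difference of 0.43 ± 0.28 (SE).

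The odorant arrays numbered 2 and 4 were the highest for both genes. For Lrrc3b the vehicle arrays numbered 2 and 4 were also the highest of their group, and in vehicle GFP- cells the same pools stood at 12.51 and 12.36 against 11.75 and 11.69. The odorant pools 2 and 4 were the highest of the odorant pools in GFP- cells, where Kirrel2 stood at 14.92 and 14.62 against 13.08 and 13.78 in the others, and Lrrc3b at 13.50 and 13.01 against 12.00 and 12.75. The difference in GFP- cells was 0.96 for Kirrel2 and 0.74 for Lrrc3b. Pcp4l1, a small protein related to the calmodulin regulator Pcp4, differed by 0.08 and Rasgrp4, an exchange factor for Ras, by -0.26. Of genes known from neurons of low activity, 3 were measured, with differences from -0.06 (Kirrel3) to 0.02.

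Immediate early genes encode the transcription factors and regulators that neurons induce within minutes of firing. Of 27 probesets for them, 0 were called, with a median difference of -0.06. At an unadjusted p under 0.05 there was 1 (3.70%, against 3.82% of all probesets). Of the 14 with mean signal above background, 12 were lower and 2 higher with odorant, with a median of -0.22 against -0.02 over the 10584 such probesets of the array. Jun, a subunit of the AP-1 factor, stood at 12.13, 11.73, 11.67 and 11.79 with odorant and at 12.27, 11.85, 12.54 and 12.21 with vehicle. Its difference was -0.39 ± 0.18 (SE), and 1 odorant array lay above the lowest vehicle array. Atf3, a stress-responsive factor of the same superfamily, differed by -0.36. Egr3 stands on 3 probesets, all with mean signal at or below background, and their differences ran from -0.11 to 0.44.

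Odorant receptors were the class on which the assay turns, and 0 of their 1090 probesets were called. At an unadjusted p under 0.05 there were 70 (6.42%), 19 higher (1.74%) and 51 lower (4.68%), against 2.36% and 1.46% of all probesets. With dim probesets left out, the number at an unadjusted p under 0.05 was 45. The arrays did not overlap for 5 receptors higher and 8 lower, against 1.38% and 0.919% of all probesets. The median difference over the receptors was -0.08 against 0.01 over all probesets, with 440 above 0 and 650 below. Of the 773 receptors whose mean signal exceeded background, 279 were above 0 and 494 below, with a median of -0.11.

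The overall level of receptors on an array varied between pools of one treatment. The median receptor signal was 8.38, 8.67, 8.62 and 8.46 with odorant and 8.82, 8.61, 8.43 and 8.59 with vehicle. Vehicle replicate 1 was the highest and odorant replicate 1 the lowest, and the groups overlapped. Without vehicle replicate 1 the median difference was -0.03, and over all 8 arrays left out in turn it ran from -0.14 to -0.03.

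Class I receptors, the older family that is grouped at 1 site on chromosome 7 and includes receptors for acids, had a median difference of 0.00 over 120 probesets, with 60 above and 60 below 0. Class II receptors, which make up the rest, had a median of -0.09 over 970, with 380 above and 590 below. At an unadjusted p under 0.05 there were 1 higher (0.833%) and 3 lower (2.5%) of class I. Of class II there were 18 higher (1.86%) and 48 lower (4.95%). The shares over all probesets were 2.36% higher and 1.46% lower. Among chromosomes with at least 20 receptors, the median difference ran from -0.22 on chromosome 10 (65 receptors) and -0.21 on chromosome 17 (49) to 0.07 on chromosomes 1 (28) and 14 (39). The largest sets, on chromosome 2 (284) and chromosome 7 (231), had medians of -0.02 and -0.08.

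Of the receptors higher with odorant, Olfr1204 had the smallest unadjusted p among those above background on all arrays of a group. It stood at 10.81, 10.97, 10.08 and 10.59 with odorant and at 10.49, 8.72, 8.99 and 9.45 with vehicle. Only vehicle replicate 1 reached the odorant range. The difference was 1.20 ± 0.35 (SE), which is 2.30-fold, with an unadjusted p of 0.00545 and an adjusted p of 0.999 (limma). In GFP- cells of the same pools Olfr1204 also stood higher with odorant, at 8.81, 9.61, 8.91 and 10.13 against 9.21, 8.08, 7.90 and 8.27, a difference of 1.00. The difference between the fractions was 0.20 ± 0.31 (SE; adjusted p = 0.913, limma on within-pool differences).

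The other 7 receptors of this kind had differences of 0.38 to 1.06. Olfr315 stood at 10.78, 10.16, 10.31 and 10.71 with odorant and at 10.14, 9.37, 10.36 and 9.33 with vehicle, a difference of 0.69 ± 0.26 (SE). Olfr1196 stood at 8.95, 9.80, 9.01 and 9.56 with odorant and at 8.68, 9.20, 8.33 and 8.50 with vehicle, a difference of 0.65 ± 0.24 (SE). For both, the groups overlapped through 1 vehicle array, and the difference in GFP- cells was small, 0.12 for Olfr315 and -0.02 for Olfr1196. In GFP- cells Olfr1196 stood at 11.78 to 13.37, above its GFP+ signal, and Olfr315 at 7.62 to 8.70, below its GFP+ signal.

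Olfr393 stood at 7.91, 7.05, 6.75 and 6.84 with odorant and at 5.25, 6.18, 6.65 and 6.44 with vehicle, a difference of 1.01 ± 0.33 (SE). The groups did not overlap, and the vehicle values lay near or under background. Olfr393 exceeded background on all 4 odorant arrays but on 1 vehicle array, and its mean over the 8 arrays, 6.63, lay under background. It passed the signal condition through the odorant group alone, so the lack of overlap describes it and tests nothing. In GFP- cells the same receptor stood at 13.55 to 14.76 on all 8 arrays, far above its GFP+ signal. Olfr250, Olfr1417, Olfr692 and Olfr612 differed by 1.06, 0.44, 0.38 and 0.48, and their groups overlapped. Olfr250 exceeded background on all 4 odorant arrays but on 1 vehicle array, and its mean over the 8 arrays, 6.61, lay under background. It thus met the signal condition only through the odorant group. In GFP- cells its mean was 12.39 with odorant and 12.09 with vehicle.

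Of the receptors lower with odorant, Olfr649 had the smallest unadjusted p. It stood at 7.18, 7.37, 7.46 and 7.59 with odorant and at 8.43, 7.80, 8.42 and 8.54 with vehicle, with no overlap. The difference was -0.90 ± 0.18 (SE), with an unadjusted p of 0.000529 and an adjusted p of 0.999 (limma). In GFP- cells all 8 values lay under background, at 4.88 to 6.43, with the difference in the same direction (-0.78).

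The other 7 receptors of this kind, Olfr821, Olfr201, Olfr1120, Olfr1130, Olfr531, Olfr803 and Olfr339, had differences from -0.98 to -0.62. Olfr821 stood at 10.52, 10.32, 10.71 and 10.50 with odorant and at 11.81, 11.00, 10.78 and 11.48 with vehicle, a difference of -0.75 ± 0.22 (SE). Its groups did not overlap, and in GFP- cells its difference was -0.01. The difference between the fractions was -0.75 ± 0.23 (SE; adjusted p = 0.718). Olfr339 stood at 8.47, 9.19, 8.78 and 9.31 with odorant and at 10.25, 10.37, 8.91 and 10.13 with vehicle, a difference of -0.98 ± 0.31 (SE), and vehicle replicate 3 lay within the odorant range. Olfr531 stood at 11.24, 10.49, 11.41 and 11.44 with odorant and at 11.81, 12.05, 11.65 and 11.82 with vehicle, a difference of -0.68 ± 0.21 (SE), with no overlap.

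**Figure D2:**
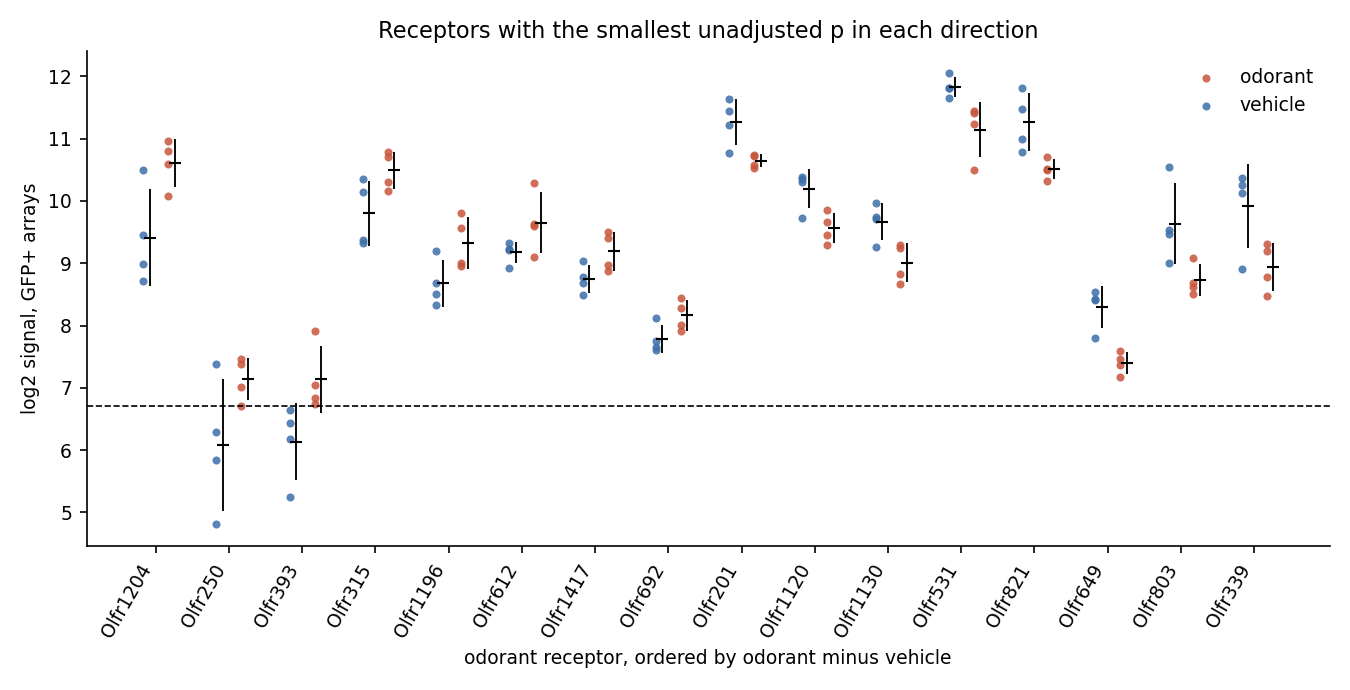
Log2 signal on each GFP+ array for the odorant receptors with the smallest unadjusted p, 8 in each direction, chosen by that p, so that the plot describes them and tests nothing. Points are arrays, black ticks with bars are the mean ± SD of 4 arrays, and the dashed line is the mean background level. Olfr1204 shows the largest mean difference upward (1.20) and Olfr339 the largest downward (-0.98), and single vehicle arrays of both lie in or near the range of the odorant arrays.

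None of the receptors with the strongest signal was called. The 10 receptors with the highest mean signal were Olfr1264, Olfr309, Olfr741, Olfr1222, Olfr522, Olfr727, Olfr222, Olfr166, Olfr695 and Olfr1197. Their differences ran from -0.48 (Olfr1222) to 0.42 (Olfr1197). The interval was -1.43 to 0.46 for Olfr1222 and -0.29 to 1.13 for Olfr1197, so larger changes were not excluded for these receptors. The highest of all, Olfr1264, stood at 18.18, 17.62, 17.73 and 17.88 with odorant and at 17.85, 16.95, 17.53 and 17.91 with vehicle, a difference of 0.29 ± 0.22 (SE), with overlap of the groups. Signals of different probesets are not on a common scale of abundance, so this order is one of signal.

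The size of effect that the 8 arrays still allow was read from each 95% interval. Of the 773 receptors with mean signal above background, 653 (84.5%) had an upper bound under 1, which is a doubling, and 763 had one under 2, a 4-fold rise. For 472 (61.1%) the whole interval lay within 1 of zero. The median interval of these receptors reached 0.647 to either side, against 0.367 for all probesets above background. Class I receptors had an upper bound under 1 in 70 of 87 and under 2 in all 87, and class II receptors in 583 and 676 of 686. The intervals are not adjusted for their number, and the 317 receptors at or below background carry no bound on a change in mRNA.

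For the other 10 receptors above background the interval still reached a 4-fold rise. Olfr323 had the widest interval, -1.31 to 6.18. It stood at 11.63, 4.09, 9.81 and 11.63 with odorant and at 4.59, 4.56, 10.21 and 8.06 with vehicle. In both treatments some pools were far above background and others at or under it. Olfr1202 stood at 9.13, 11.33, 8.87 and 10.28 with odorant and at 10.22, 8.56, 8.14 and 7.81 with vehicle, a difference of 1.22 with an interval of -0.10 to 2.54. Olfr44 differed by 1.20 with an interval of -0.10 to 2.51, and Olfr1322 by 1.19 with an interval of -0.88 to 3.26.

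**Figure D3:**
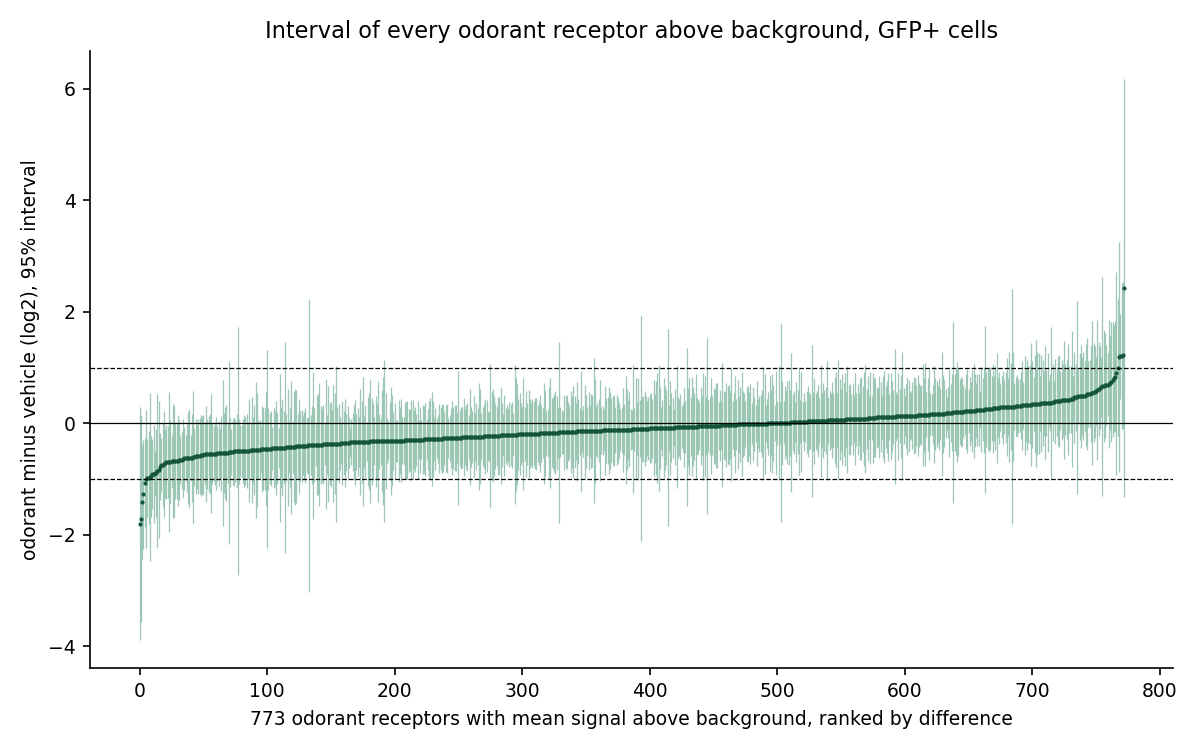
Difference between odorant and vehicle in GFP+ cells (log2, points) with its 95% interval (vertical lines) for the 773 odorant receptors with mean signal above background, ranked by difference. Dashed lines mark a doubling and a halving. Of these intervals, 653 end under the upper dashed line and 472 lie wholly between the dashed lines.

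Receptors with a known ligand or a well-mapped axon target were described as a fixed list, of which 26 of 30 were measured. None was called, and 0 had an unadjusted p under 0.05, with a median difference of -0.09. Olfr178 had the smallest p, at 11.05, 10.68, 11.42 and 11.52 with odorant and 12.34, 11.47, 11.50 and 11.46 with vehicle, a difference of -0.53 ± 0.25 (SE). Olfr1509 differed by 0.78 ± 0.47 (SE), Olfr1507 by 0.74 ± 0.38 (SE) and Olfr691 by -0.62 ± 0.36 (SE). In GFP- cells the difference of Olfr1509 was 1.55. Olfr1507 had a mean of 6.28 over the 8 GFP+ arrays, under background, and exceeded background on no vehicle array. In GFP- cells its mean was 14.35 with odorant and 14.13 with vehicle.

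Trace amine receptors, a small family of amine-sensing receptors in their own set of olfactory neurons, had 8 of 15 members with mean signal above background, and the differences of all 8 lay below 0, with a median of -0.20. None was called. Taar6 stood at 6.66, 7.90, 6.87 and 8.04 with odorant and at 7.19, 8.27, 7.21 and 9.19 with vehicle, a difference of -0.60 ± 0.46 (SE). Taar7e differed by -0.39 ± 0.29 (SE). In both genes the groups overlapped. Taar7a and Taar8b had an unadjusted p under 0.05, with differences of 0.54 and 0.60, and stood under background on every array.

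The receptors of the vomeronasal organ were at background. All 201 type 1 probesets and 120 of 122 type 2 probesets exceeded it on none of the 8 arrays, and 11 and 9 of them had an unadjusted p under 0.05 (5.47% and 7.38%, against 3.82% of all probesets). Vmn2r29 was the exception with clear signal, at 11.13, 11.48, 10.93 and 11.90 with odorant and 11.14, 11.16, 10.74 and 11.46 with vehicle.

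Other lists of neuronal genes had small median differences. Of 27 genes of odor transduction and its termination, 0 were called, and the 22 with mean signal above background included none with an unadjusted p under 0.05. Ebf2, a transcription factor of these neurons, had the smallest p among those 22, with a difference of -0.15 ± 0.13 (SE). The median differences were -0.02 for 23 regulators of receptor choice, -0.06 for 21 genes of axon guidance and adhesion, -0.06 for 15 genes of presynaptic release and -0.05 for 21 genes of immature neurons. Epha7, an Eph receptor on axons, stood at 12.67, 13.48, 12.76 and 12.85 with odorant and at 12.52, 12.70, 12.35 and 12.50 with vehicle. Its difference was 0.42 ± 0.19 (SE), with 1 odorant array under the highest vehicle array. In GFP- cells the difference of Epha7 was 0.77. Gap43, a growth cone protein of immature neurons, differed by -0.49 ± 0.27 (SE).

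Ribosomal proteins (63 probesets) and oxidative phosphorylation genes (79) had median differences of 0.01 and -0.01, and 0 of either had an unadjusted p under 0.05. Of 18 probesets of the unfolded protein response and heat shock, 1 did (5.56%, against 3.82% of all probesets). This was Hspa1b, an inducible chaperone, at 6.60, 6.45, 6.46 and 6.62 with odorant and 7.45, 6.95, 7.09 and 7.54 with vehicle. The difference was -0.73 ± 0.16 (SE; adjusted p = 0.999, limma), with no overlap, and the odorant values lay under background.

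Among genes of other cell types, those of the secretory glands had the largest median difference. Of 12 gland probesets, 5 had mean signal above background, and the difference of all 5 lay above 0. The median over the 12 was 0.42, and 0 were called. The summed signal of the list was 12.08 to 13.36 with odorant and 10.79 to 12.17 with vehicle. In the GFP- cells of the same pools that sum was 12.96 to 15.13 with odorant and 13.49 to 14.08 with vehicle. Bpifb9b, a secreted lipid-binding protein, stood at 12.45, 8.19, 11.99 and 9.52 with odorant and at 9.21, 9.71, 10.72 and 8.07 with vehicle, so the spread within a treatment exceeded the difference of 1.11 ± 0.87 (SE). Bpifb3, of the same family, differed by 0.54 ± 0.25 (SE).

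Sustentacular cells, the supporting cells of the epithelium, had a median difference of 0.15 over 12 probesets, and their summed signal was 14.64 to 16.67 with odorant and 15.48 to 15.93 with vehicle. Cbr2, a carbonyl reductase, differed by 0.50 ± 0.33 (SE). Immune cell genes had a median of -0.14 over 16 probesets, and their summed signal was 10.49 to 11.79 with odorant and 10.71 to 11.80 with vehicle. In the GFP- cells of the same pools that sum was 16.67 to 18.63. Lcn2, a neutrophil granule protein, stood at 7.60, 6.29, 6.40 and 5.53 with odorant and at 7.64, 8.71, 7.88 and 6.38 with vehicle, a difference of -1.20 ± 0.50 (SE) with overlap of the groups. The part of other cells in any difference above was not tested.

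**Figure D4:**
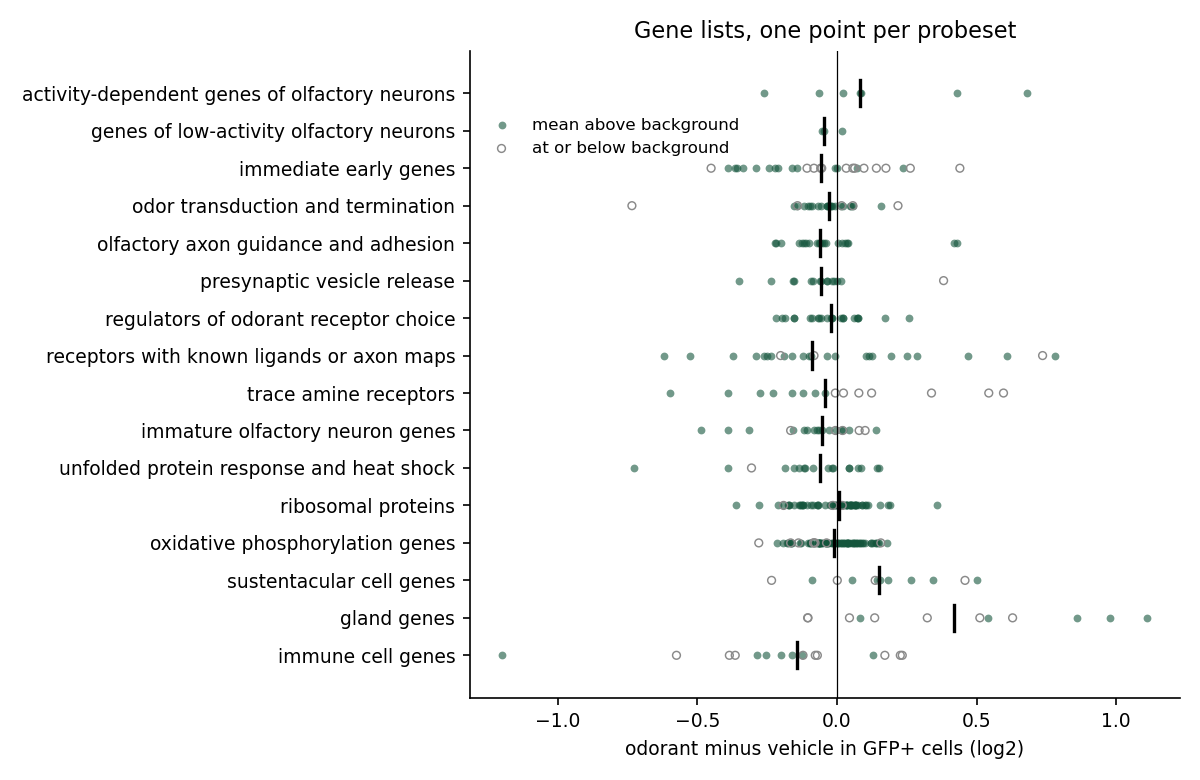
Difference between odorant and vehicle in GFP+ cells (log2) for each probeset of 16 gene lists. Filled points have a mean over the 8 arrays above background, open points do not, and black bars are list medians. Medians lie between -0.14 (immune cell genes) and 0.42 (gland genes), and 0 members of any list were called.

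Genes of no list above were ranked by unadjusted p at a difference of at least 0.5, with symbols of the Gm and Rik kinds passed over. Each had to exceed background on all 4 arrays of at least 1 group. The first upward were Gys2, Dzip3, Nop2, Ccdc192, Cspg5, Ltbr, Banp and Jag1, by 0.52 to 0.67. Cacna1a, Kif21b and Slc26a11 were the first downward, by -0.75, -0.54 and -0.58. Their adjusted p was 0.999 in each case (limma). Ltbr and Cspg5 exceeded background on 2 and 3 vehicle arrays, and Kif21b, Slc26a11 and Cacna1a on 3, 1 and 0 odorant arrays. Those genes met the signal condition only through the group where they were higher. In GFP- cells the differences were 0.77 for Dzip3, 0.74 for Jag1, 0.68 for Banp and 0.52 for Nop2. There they were 0.03 for Ccdc192, 0.01 for Cspg5, -0.285 for Ltbr and -0.62 for Gys2. For Cacna1a, Kif21b and Slc26a11 they were -0.04, 0.03 and -0.15. Cacna1a, the pore subunit of P/Q-type calcium channels, stood at 6.55, 6.61, 6.61 and 6.11 with odorant and at 7.28, 7.08, 7.40 and 7.14 with vehicle, with no overlap and the odorant values at or under background. Jag1, a Notch ligand, stood at 11.28, 12.04, 11.05 and 11.45 with odorant and at 10.63, 10.96, 10.93 and 11.02 with vehicle, with no overlap. Nop2, a nucleolar RNA methyltransferase, stood at 11.61, 12.02, 11.49 and 11.86 with odorant and at 11.29, 11.14, 10.97 and 11.51 with vehicle, with overlap through vehicle replicate 4.

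The largest positive differences belonged to 10 probesets for which the files give no gene name. They were singled out after their values were seen and are described without a test of the set. They make up 10 of the 12 probesets with a difference above 1.5. Their differences ran from 2.57 to 4.30 with a median of 3.15 and SEs of 0.505 to 1.02, and their adjusted p from 0.836 to 0.999 (limma). For 9 of the 10 the odorant arrays all lay above the vehicle arrays, against 1.38% of all probesets. Since the 10 were chosen after their values were seen, this count describes them and tests nothing.

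TC0900000008.mm.2 stood at 9.39, 8.76, 7.41 and 9.26 with odorant and at 4.88, 4.27, 5.72 and 6.89 with vehicle. TC0200004196.mm.2 stood at 15.22, 13.99, 13.44 and 14.59 with odorant and at 7.61, 8.35, 10.77 and 13.33 with vehicle. The signals of the 10 varied together from array to array, with pairwise correlations of 0.853 to 0.985 over the 8 GFP+ arrays, which include the difference between treatments. Centred within treatments, the correlations had a median of 0.864 and a minimum of 0.672, so the 10 are not independent observations. Averaged over the 10, the odorant arrays stood at 11.78, 10.81, 10.25 and 11.44 and the vehicle arrays at 6.86, 6.64, 8.29 and 9.90.

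Vehicle replicate 4 lay nearest to the odorant arrays. Without it, 3 of the 10 were called, and these were the only calls among all probesets. Adjusted p values over the 10 ran from 0.00535 to 0.586 in that fit (limma). Leaving out the vehicle array nearest to the odorant arrays must widen the difference, so these calls are no support for the set. With any other single array left out, 0 probesets were called. In GFP- cells the average stood at 7.40, 10.89, 7.73 and 10.89 with odorant and at 6.09, 7.50, 9.63 and 8.48 with vehicle, so a pool high in one fraction was not always high in the other. The difference there was 0.83 to 1.71. The difference between the fractions was 1.07 to 2.59, with adjusted p from 0.718 to 0.815 (limma on within-pool differences).

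**Figure D5:**
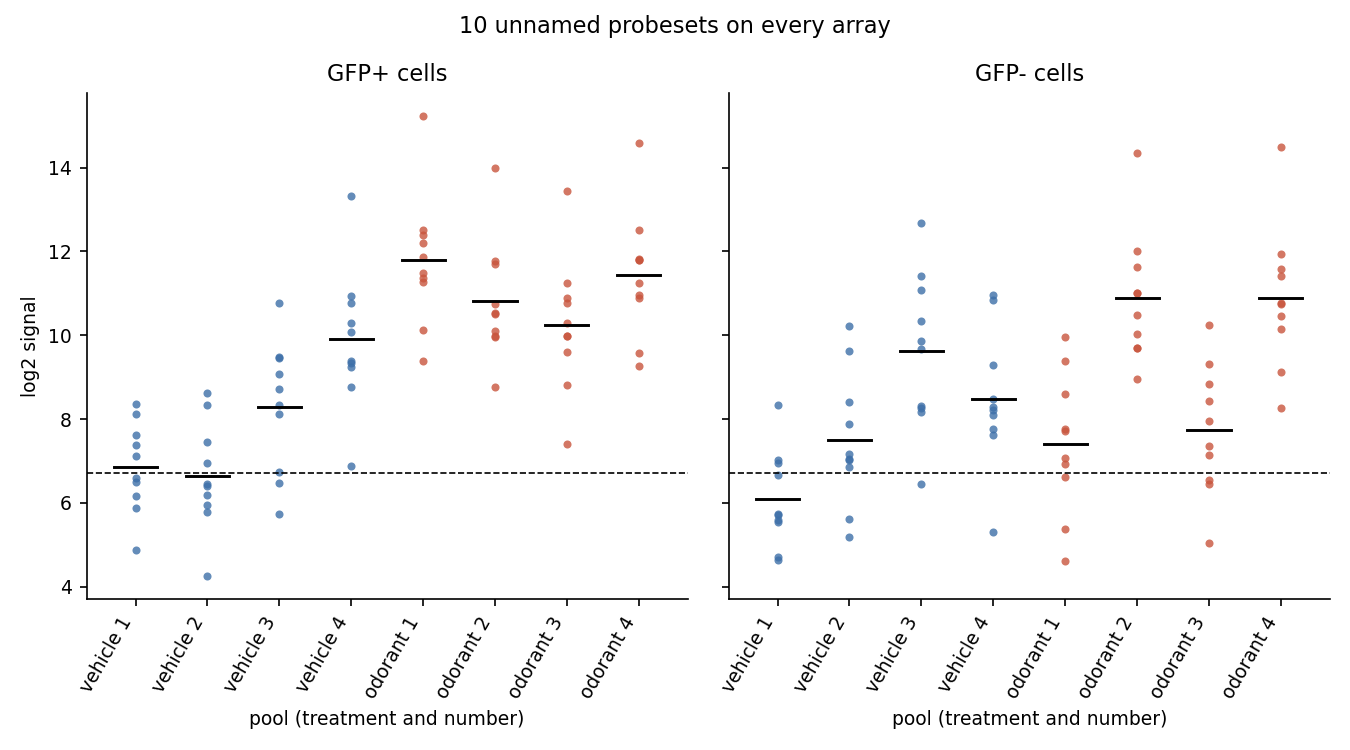
Log2 signal of 10 probesets without a gene symbol on each of the 16 arrays, by pool, in GFP+ cells (left) and GFP- cells (right). Points are probesets, black bars their mean on that array, and the dashed line is the mean background level of the GFP+ arrays. In GFP+ cells the 4 odorant means (10.25 to 11.78) lie above the 4 vehicle means (6.64 to 9.90), and in GFP- cells they overlap.

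The other 2 probesets with a difference above 1.5 were Olfr323, given above, and Fam183b. Fam183b stood at 8.62, 5.08, 8.01 and 9.24 with odorant and at 4.90, 4.95, 8.01 and 6.52 with vehicle. Both were lowest in odorant replicate 2 and vehicle replicates 1 and 2. In GFP- cells Fam183b was again low in those pools, at 4.58 in odorant pool 2 and 4.89 and 4.66 in vehicle pools 1 and 2, and at 7.13 to 8.48 in the others.

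Of 5 probesets with a difference below -1.5, 4 had their lowest value in odorant replicate 2. TC0200001246.mm.2 stood at 10.51, 4.26, 12.39 and 10.93 with odorant and at 12.84, 10.59, 13.01 and 13.39 with vehicle, and TC0200001268.mm.2 at 9.61, 3.75, 12.81 and 10.89 against 12.58, 10.65, 13.08 and 13.35. Olfr1022 stood at 6.17, 3.78, 8.23 and 7.96 against 8.46, 6.27, 9.40 and 9.20, and Olfr1221 at 6.11, 3.33, 7.99 and 7.39 against 7.44, 7.05, 8.41 and 8.76. None of the 4 was called, and the spread within the odorant group exceeded that within the vehicle group for each.

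Whether the odorant effect differed between GFP+ and GFP- cells was tested on the differences between fractions within each of the 8 pools. No probeset was called (0%), and 1460 (6.57%) had an unadjusted p under 0.05.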

How the data were processed

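The deposited values are log2 probeset signals, made by the authors with Affymetrix Expression Console, per the submitters' processing notes. The program's version, and how it corrected background, scaled arrays and combined probes, are not stated in those notes. Of 28846 probesets, 6640 controls were left out. Of the other 22206, 19572 carried 1 gene symbol, 0 several and 2634 none. All 19572 matched a RefSeq gene table (GRCm38.p6) by gene ID. Arrays were hybridised with cRNA from 50 to 100 ng of total RNA, and their number limits the precision.

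Odorant and vehicle GFP+ arrays were compared as deposited with limma 3.58.1 (lmFit and eBayes, R 4.3.3). Background correction was not repeated. The fits were tested on simulated data. Alternatives were 2 other scalings, a filter on dim probesets, an intensity trend, array weights, a replicate block, other background levels and arrays left out. Plots used matplotlib 3.10.9.

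Named genes were the 12 higher and 12 lower genes with the smallest p (difference of at least 0.5, above background on all 4 arrays of a group), the 8 higher and 8 lower receptors and 3 other chemoreceptors with the smallest p, the 10 receptors with the highest signal, S100a5, Omp and Kirrel2, and 2 to 4 members of each list. Symbols of the Gm and Rik kinds were passed over in choosing the 12 higher and 12 lower genes. Gm8369, Eif2s3y, Olfr323, Olfr1202, Olfr44, Olfr1322, Olfr1022, Olfr1221, Fam183b, Bpifb9b and the unnamed probesets were added once their values were known. The members and lists were chosen with earlier results of these data known. Replicates are pools of different mice.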

Additional observations from a re-analysis of the deposited data

Results flagged for a closer look

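In 10 of 154 groups of 4 GFP+ arrays tested over the genes named above, 1 array stood apart from the other 3 by Dixon's criterion, which chance meets in about 1 of 20 groups. Among vehicle arrays these were replicate 2 for Olfr649 (7.795), Olfr1120 (9.733) and Olfr695 (15.89), replicate 3 for Olfr339 (8.911) and Ebf2 (17.05), replicate 1 for Olfr178 (12.34) and replicate 4 for Eif2s3y (3.412). Among odorant arrays they were replicate 3 for Bpifb3 (9.377) and replicate 4 for Cacna1a (6.113) and Eif2s3y (2.667). All values are log2 signals.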

How the results depend on the processing

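Under 15 other fits, the number of probesets called lower and the number of odorant receptors called stayed at 0 by limma. The number called higher was 0 except for 3 without vehicle replicate 4 and 3 without replicate 4 of both treatments, and ran from 0 to 3 over the arrays left out in turn. With dim probesets left out, which tests fewer probesets, 271 had an unadjusted p under 0.05, 108 higher and 163 lower, against 848, 524 and 324, the receptors among them were 45 against 70, and the count for the difference between fractions was 686 against 1460. The S100a5 difference ran from -0.10 to 0.17 over the arrays left out in turn. It was -0.02 without odorant replicate 1, -0.07 without odorant replicate 4 and -0.10 without vehicle replicate 3. Over the same settings and the removal of replicate 4 of both treatments, the sign turned for 8 other named genes. Their differences ran from -0.0031 to 0.038 for Omp, from -0.041 to 0.16 for Pcp4l1, from -0.18 to 0.048 for Kirrel3, from -0.15 to 0.26 for Olfr741, from -0.14 to 0.22 for Olfr166, from -0.49 to 0.0050 for Olfr695, from -0.21 to 0.013 for Olfr522 and from -1.84 to 1.91 for Eif2s3y, which also turned to 0.20 with array weights. The causes were not tested. Over all settings, 1107 of 1129 values of the 76 named probesets other than S100a5 kept their direction and their side of the threshold, and the other 22 were those of the 8 genes just given.

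The replicate numbers did not meet the criterion for pairs. The pools numbered 4 of both treatments shared low Eif2s3y signal, but values of the same number, centred within treatments, correlated across genes at 0.01, 0.13, -0.03 and 0.25, and not every array correlated best with its own number. With the replicate number as a block, 0 probesets were called, 945 had an unadjusted p under 0.05, and the receptors among them were 149 against 70.

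Signals at or below background (11622 of 22206 probesets by their mean) set no bound on a change in mRNA.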
